A study of Homo sapiens with 4 samples.

Results

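SOCS, CISH and PIM feedback genes are genes that cytokine signalling switches on through STAT transcription factors, and 10 of them were followed: CISH, SOCS1, SOCS2, SOCS3, SOCS4, SOCS6, PIM1, PIM2, PIM3 and OSM. They were chosen by name, as the rows of the deposited expression table that carry these symbols, and all 10 were found among its 28412 genes. RNA-seq was performed on human cells labelled NB4, an acute promyelocytic leukemia line. In 2 libraries the cells carried the lentiviral pLKO.1 control vector sh-NC, which the labels call no treatment. In the other 2 libraries they carried the sh-LDB1 vector against LDB1, a cofactor that LMO2 links to DNA-bound transcription factors. Both groups were infected cells, and the study selected such cells with puromycin. The labels name neither the shRNA that was sequenced nor separate cultures for the replicates, so every p-value measures the spread between these libraries, which may be technical.

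A cytokine that binds its receptor activates JAK kinases, which phosphorylate STAT proteins, and the STAT proteins then enter the nucleus and act as transcription factors. CISH and the SOCS proteins are among the genes they induce. These proteins carry an SH2 domain that binds the receptor or the JAK and a SOCS box that recruits a ubiquitin ligase, and several of them slow the signal that induced them. SOCS4 and SOCS6 belong to the same protein family but are less closely tied to STAT induction. PIM kinases are serine/threonine kinases induced through STAT5 and STAT3 that support survival and growth of blood cells, and OSM (oncostatin M) is a cytokine that signals through gp130 and is a known STAT5 target.

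The loss of LDB1 was examined first, because it checks the labels. LDB1 (ENSG00000198728) measured 135.1 and 120.1 FPKM in the sh-NC libraries against 10.2 and 9.47 FPKM in the sh-LDB1 libraries, where FPKM is fragments per kilobase of gene scaled to library depth. Both knockdown libraries lay far below both control libraries. On average 127.6 ± 10.6 FPKM became 9.86 ± 0.546 FPKM (SD, n = 2), or 7.73% of the control. In limma the log2 fold change came to -3.56 (SE 0.0765, adjusted p = 6.93e-05 by Benjamini-Hochberg).

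The FPKM of each library rested on a divisor between 14746656 and 16182674, and between 12910 and 13443 genes reached 1 FPKM. The divisor carries a scaling between libraries and need not equal the number of reads sequenced. The cell type was checked with marker lists. Of 9 promyelocyte and granulocyte markers, 7 were in the table, and MPO and CTSG were not. The summed level of the 7 was 12.6 and 11.7 FPKM in sh-NC and 41.4 and 37.9 FPKM in sh-LDB1. The neutrophil elastase gene ELANE, which defines promyelocytes, did not exceed 1 FPKM in any library, and the highest marker of this list in sh-NC was LYZ at 5.73 ± 0.168 FPKM (SD, n = 2). All 12 erythroid markers were in the table, and 10 of them were above 1 FPKM in every library. Their summed level was 3973.4 and 4139.8 FPKM in sh-NC and 388.0 and 351.6 FPKM in sh-LDB1, led by the embryonic globin HBZ at 1571.7 ± 40.3 FPKM (SD, n = 2) in sh-NC. The markers therefore went against the label, and the libraries are called here by their labels only. Of 8 monocyte and macrophage markers, 6 were in the table, and CD163 and MARCO were not. The 6 had a summed level of 0.387 and 0.324 FPKM in sh-NC and 5.74 and 5.71 FPKM in sh-LDB1. CD14, CD68, CSF1R, FCGR1A and VCAN did not exceed 1 FPKM in any library. Of 7 lymphoid markers, 5 were in the table, and CD2 and MS4A1 were not. The 5 summed to 24.3 and 21.8 FPKM in sh-NC and to 47.7 and 50.6 FPKM in sh-LDB1, mostly CD3D. CD79A did not exceed 1 FPKM in any library. The test described next called 29.9% of all genes tested higher and 37.4% lower. By that test all 11 tested erythroid markers fell. Meanwhile 4 of 6 granulocyte markers, the 1 tested macrophage marker ITGAM and 2 of 3 lymphoid markers rose. These shifts accompany every group comparison that follows, and their part in the members' results was not tested. In bulk RNA, fewer cells of a type and less RNA per cell cannot be told apart.

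After knockdown of LDB1 the feedback genes moved in opposite directions. CISH and SOCS1 rose, all 3 PIM kinases and SOCS2 fell, SOCS6 rose slightly, and SOCS3 and SOCS4 did not pass the test. Of the 10 members, 9 reached the mean of 1 FPKM required for testing, and OSM did not. The test called 3 members higher, beside 29.9% of all 13300 genes tested, and 4 members lower, beside 37.4% of all genes. These shares of called members lie near the background. A fold change below 0.5 together with an adjusted p below 0.05 was reached by PIM2 alone of the tested members, against 10.3% of all genes, and none of the tested members exceeded a fold change of 2 upward, against 9.5% of all genes. The libraries of both groups did not overlap for 7 of the 9 tested members, and for 84.6% of all genes tested. The median log2 fold change was -0.10 over the tested members and -0.078 over all genes.

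**Figure D1:**
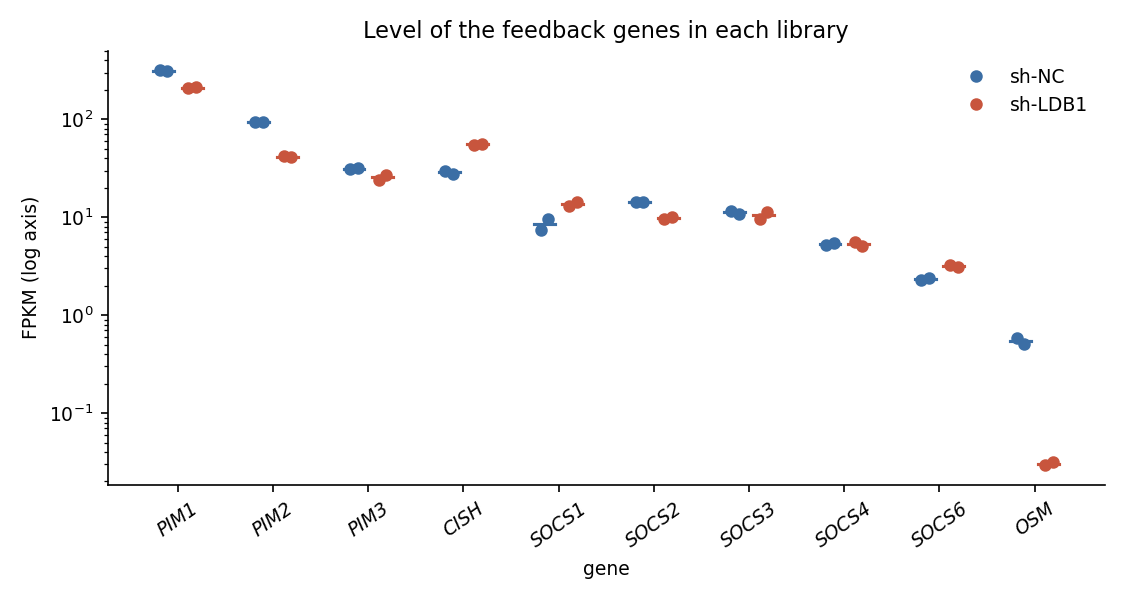
Level of each feedback gene in each library, in FPKM on a log axis, with sh-NC in blue and sh-LDB1 in red; points are libraries and short lines are group means (n = 2). PIM1 stands highest in both groups, CISH passes above PIM2 and PIM3 in sh-LDB1, and OSM lies below 1 FPKM in all 4 libraries.

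Scaling bears on these directions. When the libraries were set to equal summed FPKM, the log2 fold changes of all genes moved up by a median of 0.15, and the share of lower calls among all calls went from 55.6% to 45.0%. Under that scaling PIM3 was no longer called, with a log2 fold change of -0.12 (limma, adjusted p = 0.205), and SOCS3 and SOCS4, which were not called under either scaling, changed sign. PIM2, at a log2 fold change of -0.99, no longer passed the fold of 0.5, and CISH, at 1.10, passed a fold of 2. The members called higher stayed at 3 and those called lower went from 4 to 3.

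To investigate the negative regulators, CISH was examined first. CISH (ENSG00000114737) encodes the SH2 protein that is induced by STAT5 and dampens signalling of erythropoietin and interleukin receptors. The gene is on chromosome 3 between 50606489 and 50611774 (minus strand, hg38, GENCODE release 44). Its promoter is shown because it is the member promoter in which the sequence motif of the STAT factors was found. The stretch from 250 to 91 bases before the RefSeq start (GRCh38.p14, chr3:50611865-50612024, minus strand) reads as follows, with matches to the STAT motif TTCNNNGAA in capitals.
CISH: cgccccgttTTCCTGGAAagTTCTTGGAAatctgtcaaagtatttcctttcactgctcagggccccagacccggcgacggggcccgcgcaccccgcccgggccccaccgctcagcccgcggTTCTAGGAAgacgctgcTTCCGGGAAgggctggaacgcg
The 4 matches begin 241, 230, 129 and 112 bases before the start and read TTCCTGGAA, TTCTTGGAA, TTCTAGGAA and TTCCGGGAA. They form 2 close pairs that do not overlap one another. Since the motif is its own reverse complement, a match counts for both strands.

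RefSeq promoters of 300 bases, from 250 before to 50 after the start, were matched by symbol to 8 of the members, which gave 9 windows. SOCS2 and OSM had no entry. The STAT motif occurred in 6.41% of the 18446 promoters of genes in the table, and CISH was the 1 member of 8 that held it. In the 250 bases before the start, only 2 of the 18446 promoters held as many as 4 matches, those of CISH and ZNF225, the latter named after its value was seen. The GATA motifs AGATAA and TGATAA, searched on both strands because LDB1 complexes reach DNA through GATA factors, occurred in 11.1% of all promoters and in 0 of the 8 members. A match describes letters in a window and says nothing on whether a factor was bound there.

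The level of CISH was 29.6 and 27.9 FPKM in sh-NC and 54.8 and 56.5 FPKM in sh-LDB1. Both knockdown libraries lay well above both control libraries. The mean went from 28.7 ± 1.24 to 55.6 ± 1.20 FPKM (SD, n = 2), a ratio of 1.94. On the log2(FPKM + 1) scale limma put this rise at 0.93 (SE 0.0499, 95% interval 0.80 to 1.06, adjusted p = 0.000228). This rise was kept under all 11 alternative settings, which include leaving out each library in turn, and ranged from 0.89 to 1.1. Exons of CISH share 218 bases with MAPKAPK3, a stress kinase gene on the opposite strand, and reads there cannot be assigned without strand. MAPKAPK3 moved the other way, with 19.4 and 18.3 FPKM in the controls and 12.6 and 12.7 FPKM after knockdown, with a log2 fold change of -0.53 (limma, adjusted p = 0.00104).

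SOCS1 (ENSG00000185338), a direct inhibitor of JAK kinases, is on chromosome 16 between 11254417 and 11256204 (minus strand). Its level was 7.47 and 9.59 FPKM in sh-NC and 12.9 and 14.4 FPKM in sh-LDB1. The groups did not overlap, although the control libraries differed more from each other than for any other tested SOCS member. The mean went from 8.53 ± 1.50 to 13.6 ± 1.11 FPKM (SD, n = 2). In limma this came to a log2 fold change of 0.63 (SE 0.129, 95% interval 0.28 to 0.97, adjusted p = 0.0121). Without sh-LDB1 replicate 2 the log2 fold change was 0.55 and the call was lost (limma, adjusted p = 0.0696).

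SOCS2 (ENSG00000120833), a STAT5-induced regulator of growth hormone signalling, is on chromosome 12 between 93569814 and 93583487 (plus strand). Its level was 14.2 and 14.4 FPKM in sh-NC and 9.50 and 9.94 FPKM in sh-LDB1. The libraries of each group lay close together, and both knockdown libraries were lower. The mean fell from 14.3 ± 0.123 to 9.72 ± 0.312 FPKM (SD, n = 2). For SOCS2 limma gave a log2 fold change of -0.51 (SE 0.0503, adjusted p = 0.00114), and the call was kept under all 11 alternatives. SOCS2 thus went the opposite way from CISH, although both genes are well known as STAT5 targets. Its exons share 277 bases with the antisense gene SOCS2-AS1, which stood at 1.75 and 2.27 FPKM in sh-NC and 1.73 and 1.23 FPKM in sh-LDB1 and was not called (log2 fold change -0.28, limma, adjusted p = 0.193).

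SOCS6 (ENSG00000170677), which binds receptor tyrosine kinases such as KIT, is on chromosome 18 between 70289045 and 70330199 (plus strand). Its level was 2.27 and 2.39 FPKM in sh-NC and 3.22 and 3.07 FPKM in sh-LDB1. The groups did not overlap, and the difference was less than 1 FPKM. A small log2 fold change of 0.32 passed the limma test (SE 0.0810, adjusted p = 0.0242). The call did not hold when any 1 library was left out, with adjusted p from 0.0621 to 0.122, nor with the replicate number as a block, where the adjusted p was 0.0539, nor without the filter on low values, where it was 0.0614.

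SOCS3 and SOCS4 were the members whose groups overlapped. SOCS3 (ENSG00000184557), the inhibitor of gp130 signalling, is on chromosome 17 between 78356778 and 78360077 (minus strand). Its level was 11.7 and 10.9 FPKM in sh-NC and 9.66 and 11.3 FPKM in sh-LDB1, so that 1 knockdown library lay between the controls. The log2 fold change was -0.10, with a 95% interval from -0.34 to 0.14 (limma, adjusted p = 0.376). SOCS4 (ENSG00000180008), which is linked to signalling of the EGF receptor, is on chromosome 14 between 55027230 and 55049489 (plus strand). Its level was 5.23 and 5.48 FPKM in sh-NC and 5.53 and 5.11 FPKM in sh-LDB1. The knockdown libraries enclosed the controls, and the log2 fold change was -0.01, with a 95% interval from -0.19 to 0.17 (limma, adjusted p = 0.927). The intervals leave room for changes of either sign in both genes.

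**Figure D2:**
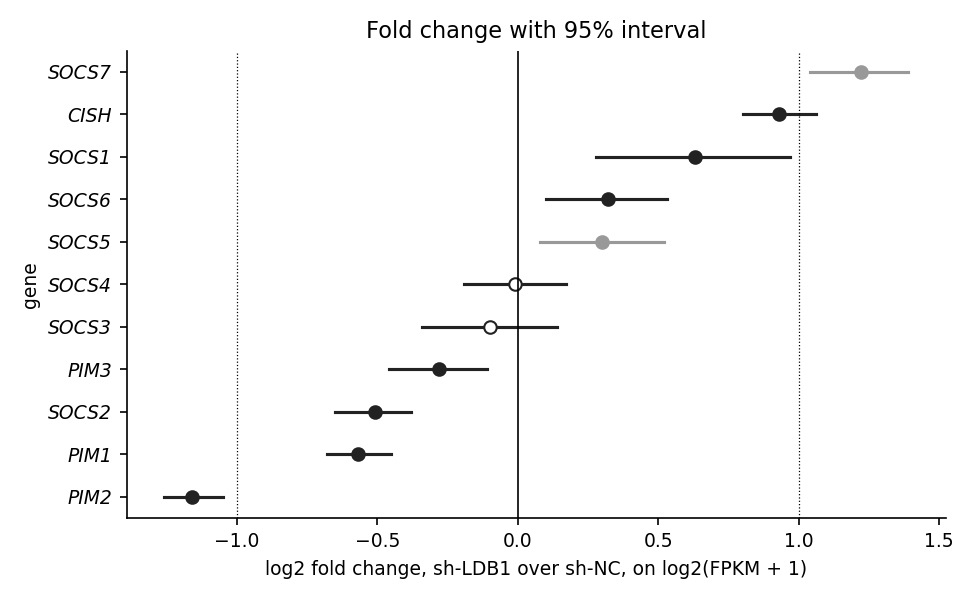
Log2 fold change of sh-LDB1 over sh-NC on log2(FPKM + 1) with its 95% interval, for the 9 tested members in black and SOCS5 and SOCS7 in grey; filled points passed an adjusted p below 0.05, open points did not, and dotted lines mark a fold of 2. PIM2 lies beyond the line on the left at -1.16, and CISH is the highest member at 0.93.

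The remaining SOCS genes of the family, SOCS5 and SOCS7, both rose. SOCS7 (ENSG00000274211), an adaptor with an SH2 domain, stood at 4.90 and 4.42 FPKM in sh-NC and 12.3 and 12.0 FPKM in sh-LDB1. Both knockdown libraries were far above the controls, with a log2 fold change of 1.22 (SE 0.0657, limma adjusted p = 0.000231). SOCS5 (ENSG00000171150), a family member also linked to EGF receptor signalling, stood at 3.27 and 2.92 FPKM in sh-NC and 4.17 and 3.91 FPKM in sh-LDB1. Its log2 fold change was 0.30 (limma, adjusted p = 0.0298), and the call was lost without sh-NC replicate 2 (log2 fold change 0.24), without sh-LDB1 replicate 1 (0.26), without sh-LDB1 replicate 2 (0.34) and without the filter on low values (0.30). SOCS5 shares 160 exonic bases with LINC01118, which did not exceed 0.0557 FPKM in any library.

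Next, the PIM kinases were examined. PIM1 (ENSG00000137193), the founding kinase of the family, is on chromosome 6 between 37170152 and 37175428 (plus strand). Its level was 315.5 and 309.1 FPKM in sh-NC and 207.3 and 214.2 FPKM in sh-LDB1. It was the most abundant member in every library, and both knockdown libraries were lower. The mean fell from 312.3 ± 4.48 to 210.7 ± 4.88 FPKM (SD, n = 2), which is 67.5% of the control level. This is a log2 fold change of -0.57 (SE 0.0423, limma adjusted p = 0.000529).

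PIM2 (ENSG00000102096), which phosphorylates regulators of translation and survival, is on chromosome X between 48913182 and 48919024 (minus strand). Its level was 93.6 and 94.3 FPKM in sh-NC and 42.2 and 41.1 FPKM in sh-LDB1. The libraries of each group were nearly equal, and the knockdown libraries were far lower. The mean fell from 93.9 ± 0.521 to 41.6 ± 0.834 FPKM (SD, n = 2), or to 44.3% of the control level. Its log2 fold change of -1.16 was the largest in size among the 9 tested members (SE 0.0396, 95% interval -1.26 to -1.05, limma adjusted p = 0.000111). The calls of PIM1 and PIM2 were kept under all 11 alternatives, and PIM2 ranged from -1.17 to -0.99.

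PIM3 (ENSG00000198355), the least abundant of the 3 kinases, is on chromosome 22 between 49960768 and 49964072 (plus strand). Its level was 31.0 and 31.6 FPKM in sh-NC and 24.2 and 27.0 FPKM in sh-LDB1. The groups did not overlap, and the knockdown libraries differed more from each other than the controls did. For PIM3 limma gave a log2 fold change of -0.28 (SE 0.0651, adjusted p = 0.0169). This call was lost without sh-NC replicate 1 (log2 fold change -0.30), without sh-NC replicate 2 (-0.27) and without sh-LDB1 replicate 1 (-0.21), in addition to the loss under equal summed FPKM.

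OSM (ENSG00000099985), the cytokine of the set, is on chromosome 22 between 30262829 and 30266851 (minus strand). Its level was 0.585 and 0.513 FPKM in sh-NC and 0.0295 and 0.0313 FPKM in sh-LDB1. These values correspond to 20 and 16 reads in the control libraries and to 1 read in each knockdown library. The control libraries were higher by many times, but the gene lay under the filter and was not tested in the main comparison. The ratio of sh-LDB1 to sh-NC, corrected for the FPKM divisors of the libraries, was 0.0552. Its exact 95% interval (Clopper-Pearson on the 36 and 2 summed reads) was from 0.00643 to 0.214, which covers counting error only. Without the filter, limma gave OSM a log2 fold change of -0.59 on log2(FPKM + 1), a scale that understates the change of a gene this low (adjusted p = 0.00742).

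The receptor chains and relatives of OSM were looked at beside it, and those outside the naming rule were named after their values were seen. IL6ST, which encodes gp130, stood at 6.20 and 6.51 FPKM in sh-NC and 10.9 and 11.3 FPKM in sh-LDB1 and rose (log2 fold change 0.72, limma, adjusted p = 0.000616). OSMR and LIFR, the chains that pair with gp130 to bind OSM, did not exceed 0.104 FPKM in any library. Of 6 other gp130 ligands, 2 were tested. CTF1 (cardiotrophin 1) rose from 1.15 ± 0.213 to 3.36 ± 0.546 FPKM (SD, n = 2; limma, adjusted p = 0.00345), and CLCF1 did not pass the test. LIF, the closest relative of OSM, stood at 0.638 and 0.478 FPKM in sh-NC and 1.27 and 1.10 FPKM in sh-LDB1 and was not tested.

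The families were then compared as sums of FPKM, a scale per length on which genes can be added. The summed level of PIM1, PIM2 and PIM3 was 440.1 and 435.0 FPKM in sh-NC and 273.7 and 282.2 FPKM in sh-LDB1. That of CISH and the 5 SOCS members was 70.5 and 70.6 FPKM in sh-NC and 95.5 and 100.4 FPKM in sh-LDB1. Thus in both knockdown libraries the PIM sum was lower and the CISH and SOCS sum was higher. On average these sums stood at 0.635 and 1.39 times the control mean. With the libraries scaled to equal summed FPKM these ratios were 0.716 and 1.57. Without CISH, the 5 SOCS members had a ratio of 1.01 on the deposited scale. With 2 libraries against 2, an exact permutation test of a single value cannot go below p = 0.333, so no p is given for these sums.

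**Figure D3:**
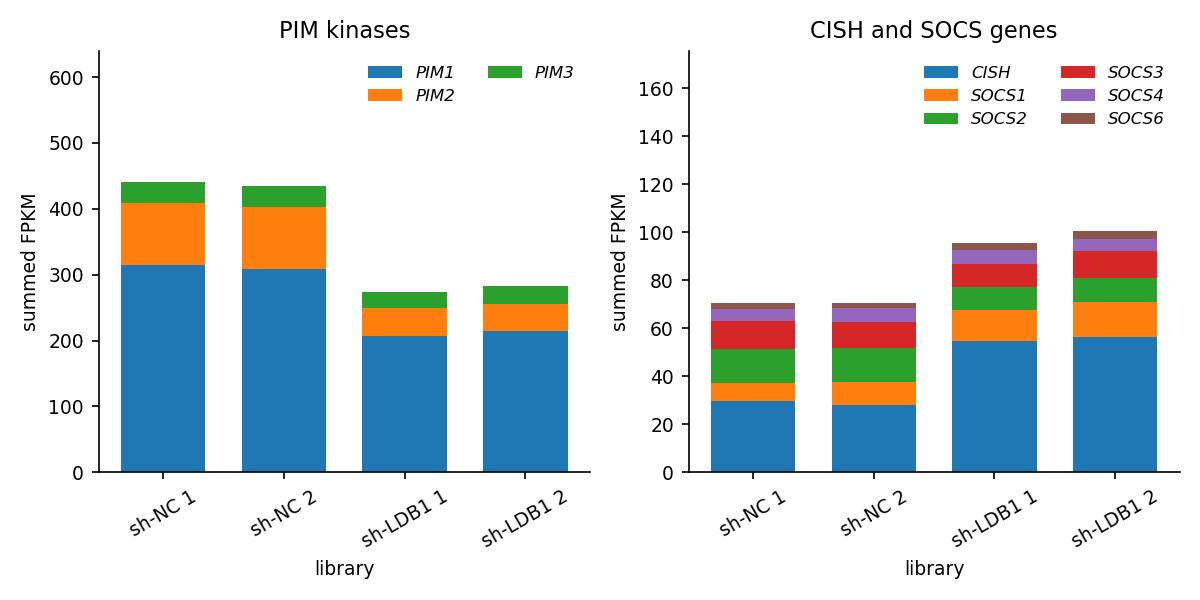
Summed FPKM of the PIM kinases (left) and of CISH and the SOCS members (right) in each library, with 1 colour per gene and bars starting at 0. The PIM sum is between 273.7 and 282.2 FPKM in sh-LDB1, below both controls, and on this deposited scale the net growth of the CISH and SOCS sum is nearly all CISH.

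On the deposited scale CISH accounted for nearly all of the net rise of the CISH and SOCS sum. That sum holds the members only and leaves out SOCS5 and SOCS7, which both rose. The 5 SOCS members without CISH summed to 40.8 and 42.8 FPKM in sh-NC and to 40.8 and 43.9 FPKM in sh-LDB1, and these ranges overlapped. Scaled to equal summed FPKM, the same 5 genes summed to 38.6 and 40.3 in the controls against 43.1 and 47.0 after knockdown, a ratio of 1.14 with no overlap. CISH made up 40.7 ± 1.83% of the CISH and SOCS sum in sh-NC and 56.8 ± 0.750% in sh-LDB1 (SD, n = 2). The share of SOCS2 went from 20.3 ± 0.142% to 9.92 ± 0.0261%. Among the kinases, PIM2 made up 21.5 ± 0.295% of the sum in sh-NC and 15.0 ± 0.625% in sh-LDB1. PIM1 went from 71.4% to 75.8% of the sum, although its own level fell. The ratio of the PIM sum to the CISH and SOCS sum was 6.25 and 6.16 in the controls against 2.86 and 2.81 after knockdown, and this ratio does not depend on how libraries are scaled.

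The order of the levels changed accordingly. In sh-NC the order by FPKM was PIM1, PIM2, PIM3, CISH, SOCS2, SOCS3, SOCS1, SOCS4, SOCS6 and OSM, and no neighbours overlapped between libraries. In sh-LDB1 it was PIM1, CISH, PIM2, PIM3, SOCS1, SOCS3, SOCS2, SOCS4, SOCS6 and OSM. The libraries of SOCS3 and SOCS2 overlapped in sh-LDB1, so the order of this pair is not resolved. CISH moved from below all 3 PIM kinases to above PIM2 and PIM3, and SOCS1 moved from below SOCS2 and SOCS3 to above both. By control level, PIM1 lay at the 99.2 percentile and PIM2 at the 96.7 percentile of the tested genes, whereas SOCS6 lay at the 24.4 percentile.

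The fold changes were placed among those of all tested genes, as a description. CISH lay at the 89.0 percentile, SOCS1 at the 81.6 percentile and SOCS6 at the 70.2 percentile. PIM1 lay at the 25.1 percentile, SOCS2 at the 27.3 percentile and PIM3 at the 38.6 percentile. PIM2 was the tested member farthest out, at the 7.6 percentile, so a fall as large as that of PIM2 was not rare in these libraries.

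**Figure D4:**
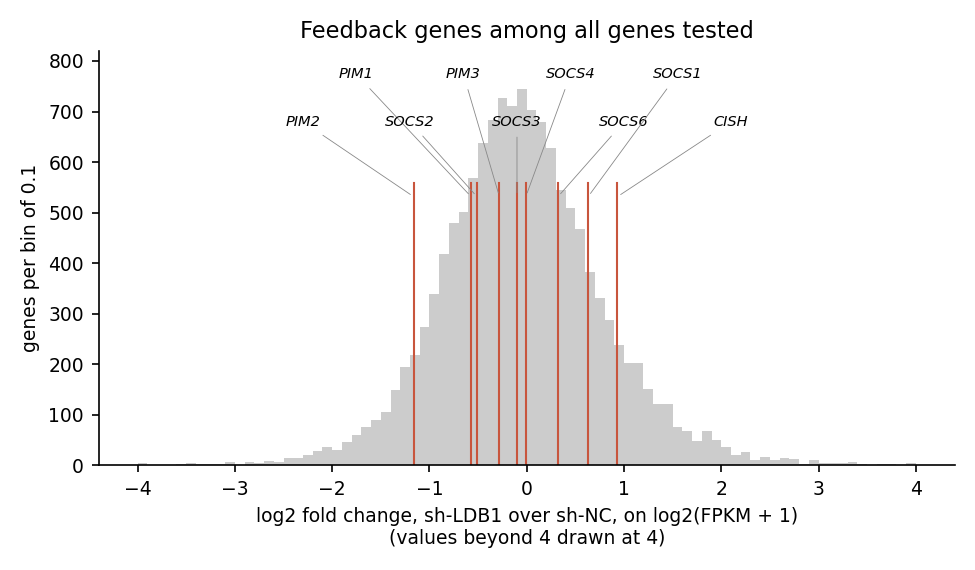
Histogram of the log2 fold changes of all 13300 tested genes in bins of 0.1 (values beyond 4 drawn at 4), with red lines at the 9 tested members. The members lie between the 7.6 and the 89.0 percentile of the distribution, with PIM2 at -1.16 and CISH at 0.93 as the outermost.

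Upstream of the feedback genes, JAK and STAT genes moved in both directions, and the 3 with the largest fold changes among those called at an average of 5 FPKM or more are given here. STAT5A, the main STAT of erythropoietin and IL-3 signalling together with STAT5B, stood at 67.9 and 67.2 FPKM in sh-NC and 14.8 and 14.6 FPKM in sh-LDB1 (log2 fold change -2.13, limma, adjusted p = 6.77e-05). STAT5B stood at 42.2 and 44.2 FPKM in sh-NC and 15.6 and 13.6 FPKM in sh-LDB1 (log2 fold change -1.50, limma, adjusted p = 0.000209). STAT2, which acts in interferon signalling, went the other way, from 9.41 and 10.1 FPKM to 31.7 and 31.1 FPKM (log2 fold change 1.59, limma, adjusted p = 0.000108). The mRNA of both STAT5 genes and of PIM1, PIM2 and SOCS2 was thus lower in the same libraries in which the mRNA of CISH was higher. STAT protein and its phosphorylation were not measured in these files.

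Of 22 JAK-coupled receptor genes, 10 were tested, with 5 higher, 4 lower and 1 not past the threshold. Among all genes tested, 29.9% were called higher and 37.4% lower. The G-CSF receptor CSF3R rose from 1.09 ± 0.0153 to 8.98 ± 0.688 FPKM, and the IL-10 receptor IL10RA from 2.03 ± 0.0768 to 11.4 ± 0.434 FPKM (SD, n = 2; limma, adjusted p = 0.000117 and 9.77e-05). The leptin receptor LEPR fell from 12.5 ± 1.02 to 3.66 ± 0.320 FPKM (SD, n = 2; limma, adjusted p = 0.000259). CSF3R is also on the promyelocyte and granulocyte marker list, whose summed level was higher in the same libraries. The erythropoietin receptor EPOR, also on the erythroid marker list and named after its value was seen, fell from 18.4 ± 1.03 to 8.45 ± 0.175 FPKM.

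SOCS box proteins act through a ubiquitin ligase made of 4 partner proteins, and these were measured too. CUL5, its scaffold, stood at 11.5 and 13.1 FPKM in sh-NC and fell to 6.59 and 6.86 FPKM in sh-LDB1 (log2 fold change -0.78, limma, adjusted p = 0.00125). RNF7, its RING protein, rose from 12.1 ± 0.242 to 16.7 ± 0.443 FPKM, and the adaptor ELOC rose from 15.1 ± 0.791 to 17.7 ± 0.210 FPKM (SD, n = 2; limma, adjusted p = 0.00177 and 0.0217). ELOB did not pass the test. When 1 library was left out, only 1 of these rises was called in 3 of the 4 fits.

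Other brakes on JAK and STAT signalling were mixed as well. Of 9 tested, 4 were higher, 2 were lower and 3 did not pass, with a median log2 fold change of 0.06. The shares over all genes tested were 29.9% higher and 37.4% lower. PIAS3, an inhibitor of STAT3, rose from 4.96 ± 0.0738 to 12.9 ± 0.313 FPKM, and the phosphatase gene PTPN1 rose from 15.2 ± 0.0862 to 19.5 ± 0.404 FPKM (SD, n = 2; limma, adjusted p = 0.000152 and 0.00307). SH2B3, the adaptor LNK that restrains JAK2, fell from 19.6 ± 1.63 to 9.00 ± 0.220 FPKM (SD, n = 2; limma, adjusted p = 0.000423).

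Genes known as targets of STAT factors outside the feedback set did not move as 1 group. Of 14 tested, 8 were higher, 4 were lower and 2 did not pass, with a median log2 fold change of 0.68 beside -0.078 over all genes. Over all genes tested, 29.9% were called higher and 37.4% lower. The repressor gene BCL6 rose from 2.89 ± 0.0591 to 32.3 ± 0.0881 FPKM, ID1 from 31.3 ± 1.02 to 195.7 ± 15.4 FPKM and BCL3 from 1.89 ± 0.166 to 16.3 ± 0.337 FPKM (SD, n = 2; limma, adjusted p = 6.77e-05, 8.1e-05 and 8.1e-05). CCND1, CCND2, MYC and TFRC fell. All of these genes respond to other factors too, and the list says nothing on which factor acted. Nor does it give whether a STAT factor raises or lowers each gene, so its counts and median carry no expected direction.

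Finally, genes whose proteins are substrates of PIM kinases were examined. Of 12 tested, 4 were higher, 5 were lower and 3 did not pass, with a median log2 fold change of -0.06. These counts stand beside 29.9% higher and 37.4% lower among all genes tested. CDKN1A, the p21 inhibitor of the cell cycle, rose from 3.60 ± 0.536 to 30.9 ± 0.189 FPKM (SD, n = 2; limma, adjusted p = 0.000106). The phosphatase gene CDC25A, which promotes cell cycle entry, fell from 24.2 ± 2.16 to 3.84 ± 0.253 FPKM, and MYC, also on the list of STAT targets, fell from 160.0 ± 1.29 to 27.7 ± 0.574 FPKM (SD, n = 2; limma, adjusted p = 0.000114 and 6.77e-05). These are mRNA levels, and phosphorylation by PIM kinases was not measured.

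**Figure D5:**
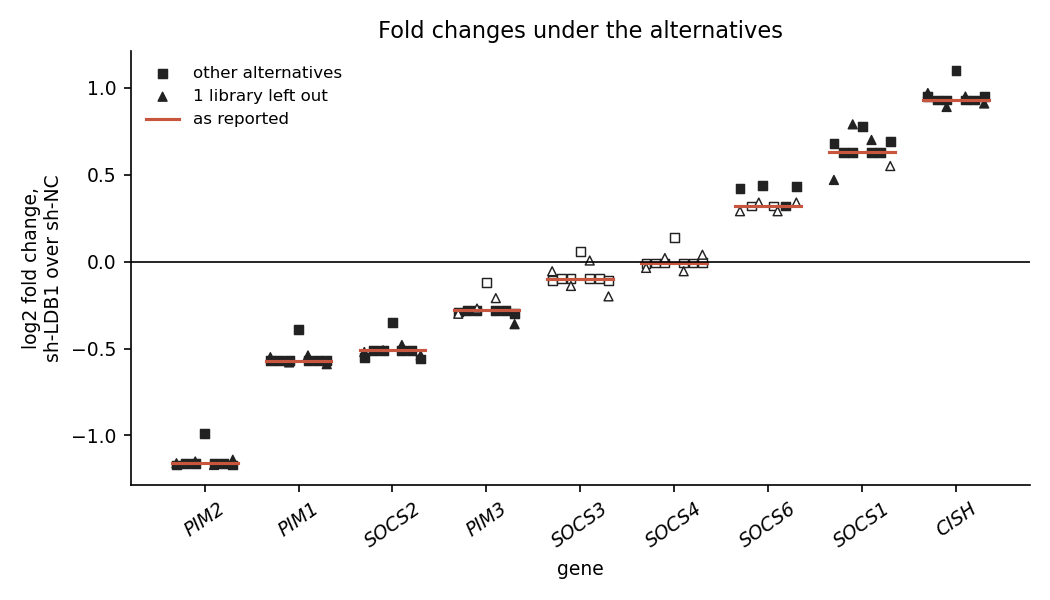
Log2 fold change of each tested member under the alternatives (squares), with 1 library left out (triangles) and as reported (red line); filled symbols passed an adjusted p below 0.05 and open symbols did not. CISH, SOCS2, PIM1 and PIM2 are filled throughout. SOCS1, SOCS6 and PIM3 hold open symbols, and SOCS3 and SOCS4 lie on both sides of 0.

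Across the alternatives the members therefore fell into separate groups by how firmly their change was measured. CISH upward and SOCS2, PIM1 and PIM2 downward were called under every one of the 11 alternatives. SOCS1 lost its call in 1, PIM3 in 4 and SOCS6 in 6 of the fits that tested it. The tested members rested on 211 to 15198 reads per library, with SOCS6 and SOCS1 at the low end and PIM1 at the high end.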

How the data were processed

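RNA of human cells labelled NB4 was sequenced in 4 libraries, 2 with sh-NC and 2 with sh-LDB1, grouped by their titles. Libraries were made from total RNA with an Illumina TruSeq kit. The authors mapped filtered reads, per the submitters' processing notes with HISAT2 2.0.5 to hg38, called changed genes with DESeq2, and deposited FPKM per gene and library. The counting tool, gene annotation and use of strand are not given in the sources used here. Over genes, the libraries' ratios to the geometric mean had a median of 1.0083 in each of the 4, so the deposited FPKM carry a median-of-ratios scaling. FPKM are not counts, so no count test was the main result.

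The 13300 genes that averaged 1 FPKM or more were compared as log2(FPKM + 1), a scale that understates changes of low genes, with limma 3.58.1 in R 4.3.3 (eBayes with a trend, no replicate block). The Benjamini-Hochberg adjustment covered all genes tested, and an adjusted p below 0.05 was called. The fit was also run on simulated data in which far fewer genes changed than here. That run checks the working of the fit and not how well it suits these libraries. Other steps used Python 3.11.15, numpy 2.4.6, pandas 2.3.3 and scipy 1.17.1.

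Reads were recovered from FPKM, since each gene's values step by a fixed amount per read. They were whole, within 0.0001 reads plus a share of 1e-07 of the reads, for 99.99% of genes. Recovered reads of replicates differed by more than counting noise (chi-square 4.37 per gene for sh-NC, 2.29 for sh-LDB1), so each library counted as 1 replicate. Intervals on reads cover counting error only.

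Gene positions came from GENCODE release 44 (hg38), and promoters from RefSeq (GRCh38.p14). All members and LDB1 were named, and from each other list up to 3 called genes with the largest fold change and a mean of at least 5 FPKM, both other SOCS genes, and of the marker lists the highest gene in sh-NC and those at or under 1 FPKM. Other genes were named after their values were seen. The counts over the list of JAK and STAT genes are not reported here. Members and lists were chosen with earlier results of these data known. Alternatives were a pseudocount of 0.1, no filter, a mean of at least 5 FPKM, equal summed FPKM, a replicate block, no trend, voom on recovered reads, each library left out, and the 250 bases before the start for motifs.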

Additional observations from a re-analysis of the deposited data

How the results depend on the processing

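Over 9 tested members and 11 alternatives, 98 values were computed. Of these, 82 kept direction and call, 11 kept direction and lost the call, and 5 changed sign, all 5 in the uncalled SOCS3 and SOCS4. Under equal summed FPKM the log2 fold change was 0.0592 for SOCS3 and 0.14 for SOCS4. With 1 library left out, SOCS3 ranged from -0.2 to 0.00638 and SOCS4 from -0.0553 to 0.0397, including 0.0205 without sh-NC replicate 2. The cause was not tested. The members called higher went from 3 to 0 at a fold change above 2, and those called lower from 4 to 1 at a fold change below 0.5, by construction of the stricter rule. Each fit with 1 library left out has 1 library in a group, and fewer of all genes were called in it than with all 4 libraries. Counts of called members are therefore not given for these fits. No filter gave 2 higher and 5 lower of the 10 members, beside 17.3% and 17.0% of all 28412 genes, which include those under 1 FPKM. A mean of at least 5 FPKM, which left out SOCS6, gave 2 and 4, beside 33.1% and 47.4% of 7506 genes, and equal summed FPKM gave 3 and 3, beside 36.9% and 30.2% of 13333 genes. Voom on recovered reads, chosen after seeing the data, gave 3 and 4, and called 4238 genes higher and 5214 lower among all genes, against 3983 and 4978 with limma on FPKM. A replicate block gave 2 higher and 4 lower members, beside 29.2% and 36.2% of all genes tested. The labels number the replicates but name no shared culture or day. Deviations of same-numbered libraries correlated at 0.02 over 13300 genes. With 2 libraries a group this value cannot show whether same-numbered libraries shared a culture or day. The share of promoters with the STAT motif was 5.56% and with the GATA motifs 9.94% in the 250 bases before the start. With 2 libraries a group, the spread of each gene rests largely on that of genes of like level. OSM, with 1 read in each sh-LDB1 library, is limited by depth.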
